A study of Mus musculus with 28 samples.

Results

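GS (germline stem) cells, a cultured line of male germ cells, were compared with samples labelled spermatogonia by RNA level on 1-colour microarrays. That name is used for the mitotic germ cells of the testis, but whether the cells of these samples were dividing was not tested. The comparison took 4 of the 28 arrays of the series, 2 of GS cells and 2 of spermatogonia, chosen by their sample labels alone. The GS samples were labelled male DBA/2, and the spermatogonia male BDF1 x Tg(Mvh-Venus)1Rbrc, a cross that carries a Venus reporter named for Mvh, an older name of the germ cell gene Ddx4. No drug, knockout or other treatment was named for either group. The labels gave no age, passage, feeder layer or sort, and did not say whether the 2 samples of a group came from separate cultures or animals, so the p-values rest on a spread that may be technical only. Both GS arrays lay on 1 slide with the whole-testis arrays, and both spermatogonia arrays lay alone on another slide scanned on another day, so group, strain, slide and scan day cannot be told apart. The other 24 arrays (fetal germ cells, oogonia, EG and ES cells and testis) entered the fit for its estimate of the spread.

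As background, spermatogonial stem cells renew themselves in response to GDNF, a growth factor made by somatic cells of the testis, which binds the receptor GFRA1 and its partner RET and sustains genes such as Etv5, Bcl6b, Lhx1 and Nanos2. GS cells are derived from such cells by culture with GDNF, commonly on a layer of embryonic fibroblasts, and divide without entering meiosis. Male germ cells of the late fetal and newborn testis rest in the cell cycle and re-methylate their DNA through DNMT3A and its cofactor DNMT3L, and spermatogonia later resume division and differentiate under retinoic acid.

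Levels are given on a log2 scale with 0 at each array's 75th percentile, taken over the 7227 probes detected well over background on every one of the 28 arrays. A difference is the GS mean minus the spermatogonia mean, with its standard error (SE) from a limma fit over all 28 arrays, n = 2 arrays a group. A gene was tested if both arrays of either group detected it well above background, and called at a Benjamini-Hochberg adjusted p under 0.05. Where a group was not well above background on either array, the change is written as "at least" the fold from the bright group's mean to the dim group's limit of detection. That limit is, on each array, the higher of the lowest signal well above background and the probe's own signal. Probes well above background made up 70.9% and 73.9% on the GS arrays and 41.1% and 49.4% on the spermatogonia arrays, against 17.8% to 76.7% over the series. Few dim RNAs could thus be measured in spermatogonia: the lowest level well above background was -6.41 and -7.19 there and -9.82 and -10.72 in GS. In such bulk RNA, fewer cells of a type and less RNA per cell cannot be told apart.

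The 2 GS arrays were less alike than the 2 spermatogonia arrays. Over the 14869 features well above background on all 4 arrays, Pearson's r was 0.923 between the GS arrays and 0.990 between the spermatogonia arrays, and it was 0.770 to 0.832 between groups, a description over genes and not replicates. Germ cell markers were present on all 4 arrays: Ddx4, Dazl, Dnd1, Tex101 and Sycp3 were well above background on each, with summed linear levels of 5.74 and 8.82 on GS arrays 1 and 2 and 12.2 and 11.0 on the spermatogonia arrays. Of the spermatogonial markers, Gfra1, Kit and Stra8 were well above background on all 4 arrays. Zbtb16, a factor of undifferentiated spermatogonia, was well above background on the GS arrays alone, at -7.44 and -6.99 in GS and -8.66 and -7.57 in spermatogonia, levels close to the detection limits of the spermatogonia arrays, so it had no measurable difference. Fibroblast markers set the GS arrays apart. Over 9 matched markers (Col1a1, Col1a2, Col3a1, Postn, Lum, Dcn, Pdgfra, Pdgfrb and Twist1), all well above background on both GS arrays, the summed linear level was 25.1 on GS array 1, 2.52 on GS array 2, and 3.09 and 2.58 on the spermatogonia arrays. GS array 1 thus stood apart from the other 3 arrays in fibroblast marker signal.

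Of 26022 features tested, 6641 (25.5%) were called, 3128 higher in GS and 3513 lower, with a median log2 difference of 0.02. Among the 10758 tested features with a gene name, 15.9% were called higher and 16.9% lower, and the counts of the gene groups below are read against these shares. Of the 3128 features called higher, 2188 had GS arrays within 1 log2 unit of each other, 822 were higher on GS array 1 by more than that, and 118 on GS array 2. Of the 3513 called lower, 2735 were even in this sense. Without GS replicate 1, 1865 were called higher, of which 1665 were among the 3128, and 2514 lower, of which 2236 were among the 3513. Fitted with the slide as a random block, whose estimated correlation was 0.60, 425 were called higher and 820 lower, all of them among the calls above. A background correction by normexp on the median spot signal moved the median of all tested features by -1.53 and gave 1469 higher and 15757 lower. In that setting 8.53% of the calls were higher, against 47.1% in the fit reported here. The direction of a difference can thus depend on the background correction, and whether this differs between dim and bright genes was not tested. Called differences as large as that of Lin28a (3.21 ± 0.52) turned sign with normexp.

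**Figure D1:**
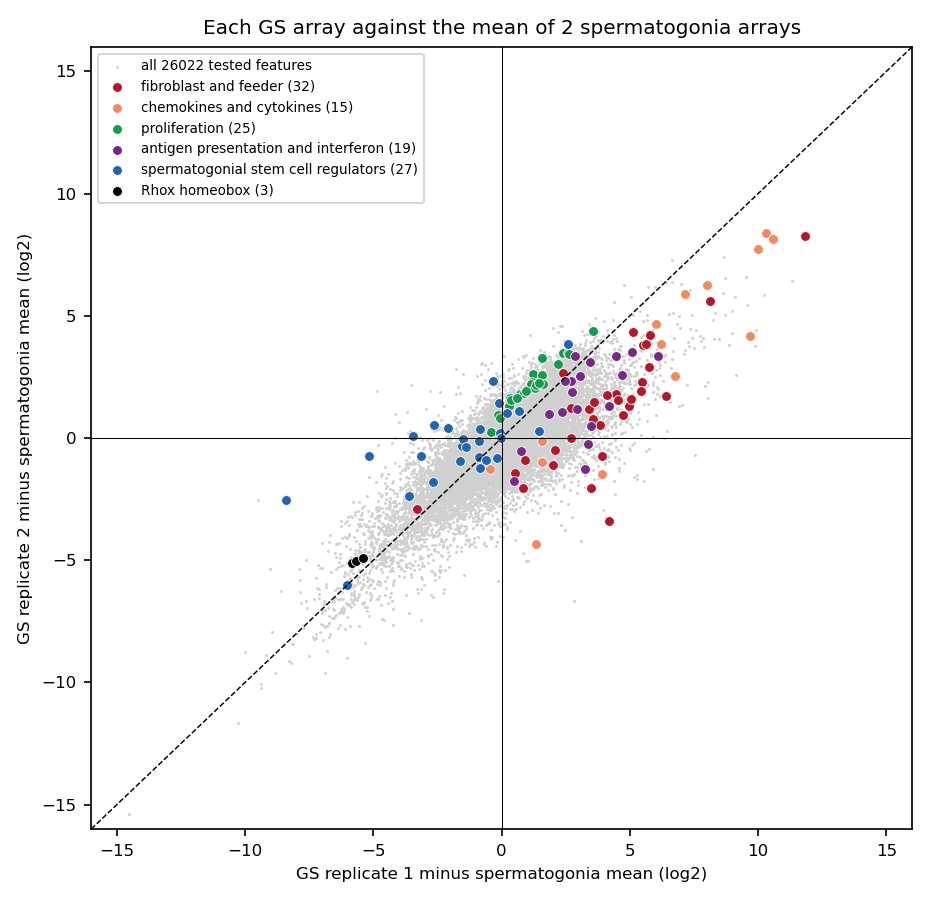
Each point is a tested feature, placed by its log2 level on GS array 1 (x) and GS array 2 (y) minus the mean of the 2 spermatogonia arrays, with 6 gene groups coloured and the dashed line marking equal values. Fibroblast and chemokine genes lie mostly below the dashed line, proliferation genes on or above it, and the 3 Rhox genes lie near the line at about -5.

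Dnmt3l and Dnmt3a, which act in new DNA methylation in male germ cells, were lower in GS on both arrays. Dnmt3l, the cofactor that stimulates the de novo enzymes, was above the 75th percentile in spermatogonia and far below it in GS. Its level was -3.69 and -4.58 on GS arrays 1 and 2 and 1.52 and 1.51 on the spermatogonia arrays, a difference of -5.65 ± 0.82 (limma adjusted p = 0.00013), or 50.2-fold lower. Dnmt3a, the methyltransferase it works with, had a level of -3.69 and -3.19 on GS arrays 1 and 2 and -0.84 and -0.69 on the spermatogonia arrays. It fell by 2.68 ± 0.36 (limma adjusted p = 7.3e-05), and its 6 measured probes gave differences from -2.68 to -1.35. Both GS arrays lay below both spermatogonia arrays for both genes. Dnmt3b, the second de novo enzyme, moved the other way, at -0.05 and 0.23 in GS and -0.92 and -0.95 in spermatogonia (difference 1.02 ± 0.30, limma adjusted p = 0.018), with 9 probes between 1.02 and 1.36. The maintenance enzyme Dnmt1 and its partner Uhrf1 did not pass, with differences of 0.84 ± 0.48 (adjusted p = 0.23) and 0.20 ± 0.38 (adjusted p = 0.77) by limma.

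Of 17 tested genes of DNA methylation and demethylation (21 listed), 7 were called higher and 2 lower (Dnmt3l and Dnmt3a), with a median of 0.84. Of the 13 measured on all 4 arrays, 5 were called higher and 2 lower. Besides Dnmt3b, the methyl-CpG binding genes Mbd1 and Mbd2, the repair glycosylases Mbd4 and Tdg, and the stress-inducible Gadd45a and Gadd45b rose, but Mbd4 and Tdg turned sign with normexp. Gadd45b had the widest gap, with levels of -1.04 and -3.03 in GS and -6.11 and -5.94 in spermatogonia (difference 3.99 ± 0.51, limma adjusted p = 4.1e-05), and was higher on GS array 1 than on GS array 2. Dnmt3l and Dnmt3a were called without GS replicate 1 and with the slide as a random block, where 1 gene of the group was called higher. With normexp the group's median was -0.07, so the direction of its middle members depends on that setting.

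The 3 tested Rhox genes, X-linked homeobox genes of the reproductive tract, fell together. Rhox6 was -7.07 and -6.40 on GS arrays 1 and 2 and -1.34 and -1.43 on the spermatogonia arrays (-5.35 ± 0.31, limma adjusted p = 4.5e-08). Rhox9 was -5.70 and -5.19 on GS arrays 1 and 2 and -0.23 and -0.35 on the spermatogonia arrays (-5.16 ± 0.32, limma adjusted p = 7.1e-08). Rhox5, the founding member, was -7.84 and -7.11 on GS arrays 1 and 2 and -1.94 and -2.08 on the spermatogonia arrays (-5.46 ± 0.41, limma adjusted p = 3.6e-07). No GS array overlapped a spermatogonia array, and all 3 were called lower in every alternative setting run. Rhox11 was matched but not bright enough to be tested, and 10 other listed Rhox genes had no probe of their name. The promoter listed for Rhox5 is shown because RNA from this gene is known to be held down by methylation of its promoter in many cell types. Its 250 bases before the start (RefSeq, GRCm38.p6) hold 4 CpG dinucleotides, in capitals, against a median of 6 over the 32851 promoters of the table:
Rhox5 (chrX:37754358-37754607, plus strand): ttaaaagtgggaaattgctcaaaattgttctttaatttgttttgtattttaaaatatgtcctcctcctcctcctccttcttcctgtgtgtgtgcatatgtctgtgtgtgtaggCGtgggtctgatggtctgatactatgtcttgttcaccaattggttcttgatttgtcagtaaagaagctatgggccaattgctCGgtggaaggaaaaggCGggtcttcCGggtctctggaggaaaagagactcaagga

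Among pluripotency genes, Trim71, Dppa4 and Prdm14 had the widest falls, and the core factors Pou5f1 and Sox2 did not pass. Of 19 tested members (25 listed), 7 were called lower and 2 higher (Klf2 and Tdh), with a median of -0.69. Of the 16 measured on all 4 arrays, 5 were called lower and 2 higher. Trim71, an RNA-binding regulator of stem cell division, was -4.53 and -3.92 on GS arrays 1 and 2 and 0.39 and 0.33 on the spermatogonia arrays (-4.59 ± 0.45, limma adjusted p = 3.9e-06). Dppa4, a chromatin protein of early embryos and germ cells, was -2.98 and -0.99 on GS arrays 1 and 2 and 2.21 and 1.95 on the spermatogonia arrays (-4.07 ± 0.41, limma adjusted p = 5.2e-06). Prdm14, a factor that founds the germ line, was -10.25 and -9.17 on GS arrays 1 and 2 and -5.14 and -5.83 on the spermatogonia arrays (-4.22 ± 0.55, limma adjusted p = 5.4e-05). It was well above background on 1 GS array and was tested through the spermatogonia arrays alone, so the size of its fall is uncertain. For each of these 3 genes both GS arrays were below both spermatogonia arrays. Dppa2, Esrrb, Fbxo15 and Gdf3 were also called lower, by -2.39 to -1.12, and Gdf3 had no difference left when all arrays were set to a common floor.

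Pou5f1 and Sox2, core factors of pluripotent cells, split the GS arrays. Pou5f1 was -0.06 and 2.33 on GS arrays 1 and 2 and 0.82 and 0.98 on the spermatogonia arrays (0.23 ± 0.58, limma adjusted p = 0.82). Sox2 was -6.63 and -0.94 on GS arrays 1 and 2 and -2.97 and -3.21 on the spermatogonia arrays (-0.69 ± 1.17, limma adjusted p = 0.73). For both genes GS array 1 was the lowest of the 4 arrays and GS array 2 the highest. Nanog, the third core factor, was well above background on 1 array of each group and was not tested. When GS array 1 was left out, 4 members were called lower and 1 higher, and the list's median moved from -0.69 to -0.10.

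**Figure D2:**
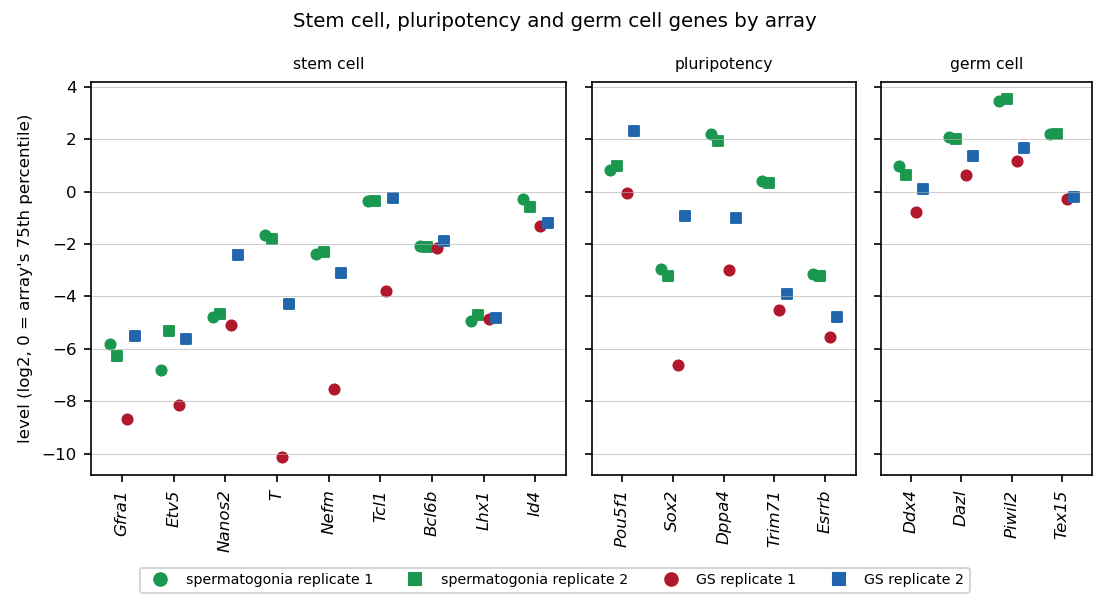
Log2 levels (y, 0 at the array's 75th percentile) of stem cell, pluripotency and germ cell genes (x) on each of the 4 arrays, 1 symbol an array. For Gfra1, Nanos2, Pou5f1 and Sox2 the spermatogonia values lie between the GS arrays, whereas both GS values of Dppa4, Trim71, Piwil2 and Tex15 lie below both spermatogonia values.

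Regulators of spermatogonial stem cells followed the same split. Of 27 tested members (35 listed), 7 were called lower and 2 higher (Lin28a and Itgb1), and 14 were higher on GS array 2 than on GS array 1 by more than 1 log2 unit, against 1 in the other direction. The list's median was -0.89 on GS array 1 and -0.11 on GS array 2. Gfra1, the GDNF receptor, was -8.66 and -5.50 on GS arrays 1 and 2 and -5.80 and -6.27 on the spermatogonia arrays (-1.05 ± 1.20, limma adjusted p = 0.59). Nanos2, an RNA-binding repressor that keeps stem cells undifferentiated, was -5.08 and -2.41 on GS arrays 1 and 2 and -4.78 and -4.68 on the spermatogonia arrays (0.98 ± 1.02, limma adjusted p = 0.54). Both genes were higher on GS array 2, and lower on GS array 1, than on both spermatogonia arrays. Etv5, a GDNF-induced transcription factor, was -8.14 and -5.64 on GS arrays 1 and 2 and -6.80 and -5.31 on the spermatogonia arrays (limma adjusted p = 0.45), and only 1 spermatogonia array was well above background for it.

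The largest gaps between the GS arrays in this group were in T (Brachyury), at -10.13 and -4.28 in GS and -1.64 and -1.82 in spermatogonia, and the neurofilament gene Nefm, at -7.52 and -3.09 in GS and -2.39 and -2.29 in spermatogonia. Both were called lower (T -5.47 ± 1.58, limma adjusted p = 0.018, and Nefm -2.97 ± 1.01, adjusted p = 0.04), with the larger share of the difference from GS array 1. However, T was well above background on 1 GS array and was tested through the spermatogonia arrays alone. Its level on GS array 1 was under the lowest level well above background there (-9.82), so the sizes of its gap and fall are uncertain. Tcl1, a co-activator of AKT, had -3.81 and -0.26 in GS and -0.35 and -0.36 in spermatogonia and did not pass (adjusted p = 0.087), with GS array 2 just above and GS array 1 below both spermatogonia arrays. The fibroblast marker sum was 25.1 on GS array 1 and 2.52 on GS array 2, and its part in these gaps was not tested.

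A few stem cell genes were even on all 4 arrays. Lhx1 was -4.87 and -4.81 on GS arrays 1 and 2 and -4.95 and -4.72 on the spermatogonia arrays, and Bcl6b was -2.17 and -1.89 on GS arrays 1 and 2 and -2.09 and -2.12 on the spermatogonia arrays. Their differences were -0.01 ± 0.31 and 0.07 ± 0.27, with adjusted p = 0.99 and 0.89 by limma, and the groups overlapped for both of these GDNF-induced factors. An SE of 0.31 for Lhx1 and 0.27 for Bcl6b leaves changes of that order undecided. Id4, a marker of the most primitive stem cells, was lower in GS on both arrays by its brightest probe, at -1.31 and -1.20 in GS and -0.27 and -0.58 in spermatogonia (-0.83 ± 0.27, limma adjusted p = 0.033), but its 5 measured probes disagreed in sign (-1.45 to 0.43). Foxo1, a factor needed for stem cell upkeep, was -0.47 and 0.22 in GS and 1.06 and 1.26 in spermatogonia (-1.29 ± 0.23, limma adjusted p = 0.00077). Ret and Sall4 had no probe of their name.

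Surface proteins used to recognise spermatogonia differed among themselves. Tspan8, a tetraspanin of spermatogonia, was -7.62 and -7.60 on GS arrays 1 and 2 and -1.46 and -1.73 on the spermatogonia arrays (-6.02 ± 0.82, limma adjusted p = 8.5e-05). Cdh1 (E-cadherin), the adhesion protein of undifferentiated spermatogonia, was -4.75 and -3.52 on GS arrays 1 and 2 and -1.05 and -1.26 on the spermatogonia arrays (-2.98 ± 0.41, limma adjusted p = 8.5e-05). Both GS arrays were below both spermatogonia arrays for these 2 genes. Itgb1 (integrin beta-1) was 0.56 and -0.60 in GS and -0.78 and -0.99 in spermatogonia and was called higher (0.87 ± 0.31, limma adjusted p = 0.048). Cd9, Itga6 and Mcam did not pass, with differences of 0.61, -0.23 and -0.49. Utf1, a chromatin factor of undifferentiated spermatogonia, was -5.26 and -2.85 in GS and -2.35 and -1.89 in spermatogonia (-1.94 ± 0.57, limma adjusted p = 0.019). Lin28a, an RNA-binding stem cell protein, was well above background in GS only (-5.90 and -4.64 in GS and -8.43 and -8.53 in spermatogonia) and was at least 2.88-fold higher. It was called higher in the fit reported here, but its sign turned with normexp. Of the whole list, 3 members were called lower and 1 higher with GS array 1 left out, and 2 lower with the slide as a random block.

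Genes of differentiating spermatogonia were called in both directions, in shares near those of all named genes. Of 15 tested members (19 listed), 3 were called higher (Ccnd1, Crabp1 and Dnmt3b) and 2 lower (Prss50 and Lin28b), with a median of 1.02. Ccnd1 (cyclin D1), which drives entry into the cell cycle, was 1.44 and 1.09 on GS arrays 1 and 2 and -1.55 and -1.51 on the spermatogonia arrays (2.79 ± 0.37, limma adjusted p = 6.4e-05). Crabp1, a retinoic acid carrier, was 2.90 and 2.08 in GS and 1.05 and 1.07 in spermatogonia (1.43 ± 0.44, limma adjusted p = 0.025). Stra8, the retinoic acid target that marks differentiation and meiotic entry, was 1.30 and 0.40 on GS arrays 1 and 2 and -1.66 and -1.42 on the spermatogonia arrays, a difference of 2.39 ± 1.13 that did not pass (limma adjusted p = 0.14) although both GS arrays were above both spermatogonia arrays. Kit, the receptor of differentiating spermatogonia, was -3.51 and -3.74 in GS and -3.21 and -3.59 in spermatogonia (adjusted p = 0.64 by limma), with overlapping groups. Prss50, a testis serine protease, and Lin28b, an RNA-binding protein, were -5.46 and -6.30 in GS and -3.53 and -3.43 in spermatogonia, and -2.41 and -1.73 in GS and -0.49 and -0.49 in spermatogonia. With the slide as a random block 1 member was called higher and 1 lower.

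Germ cell and piRNA genes were lower or did not pass. Of 22 tested members (33 listed), 6 were called lower and 0 higher (9 and 1 at an unadjusted p under 0.05 in limma), with a median of -0.76 (-1.23 on GS array 1 and -0.39 on GS array 2). Piwil2, the PIWI protein that loads piRNAs in spermatogonia, was 1.17 and 1.65 on GS arrays 1 and 2 and 3.46 and 3.53 on the spermatogonia arrays (-2.09 ± 0.24, limma adjusted p = 2.1e-05). Tex15, which acts with nuclear piRNAs in silencing transposons, was -0.29 and -0.19 on GS arrays 1 and 2 and 2.22 and 2.19 on the spermatogonia arrays (-2.44 ± 0.34, limma adjusted p = 8.8e-05). Tex19.1, another germ cell gene tied to transposon control, was 1.20 and 1.55 in GS and 3.12 and 3.21 in spermatogonia (-1.79 ± 0.28, limma adjusted p = 0.00024). Both GS arrays were below both spermatogonia arrays for each of these 3 genes. Piwil1, Rnf17 and Ddx25 made up the rest, and the probes of Ddx25 (4 probes, -1.22 to 1.05) and Piwil1 (2 probes, -2.25 to 0.50) disagreed in sign.

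The general germ cell genes Ddx4 and Dazl did not pass. Ddx4, an RNA helicase of the germ line, was -0.77 and 0.10 in GS and 0.99 and 0.64 in spermatogonia (-1.15 ± 0.48, limma adjusted p = 0.093). Dazl, a translational regulator, was 0.63 and 1.36 in GS and 2.09 and 2.01 in spermatogonia (-1.05 ± 0.72, limma adjusted p = 0.32). GS array 1 was the lowest array for both. In this group 3 members were called lower without GS replicate 1, and with the slide as a random block 2.

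Meiotic genes showed a similar picture, with 4 of 14 tested members (30 listed) called lower and 0 higher (4 and 0 at an unadjusted p under 0.05 in limma), and a median of -0.55. Spo11, which makes the DNA breaks of meiotic recombination, was -4.65 and -4.59 on GS arrays 1 and 2 and -0.99 and -1.41 on the spermatogonia arrays (-3.42 ± 0.40, limma adjusted p = 2.2e-05). Tex12, a part of the synaptonemal complex, was -2.60 and -1.79 in GS and 0.84 and 0.37 in spermatogonia (-2.80 ± 0.42, limma adjusted p = 0.00018). Hormad1 and Sycp3, proteins of the chromosome axis, fell by 2.51 and by 1.44 by their brightest probes. The 2 probes of Sycp3 disagreed in sign (-1.44 to 0.30), and the second probe of Hormad1 gave -0.58. The 3 measured probes of Spo11 ranged from -3.42 to -0.79. Both GS arrays were below both spermatogonia arrays for each of the 4 genes by these probes. With the slide as a random block 2 were called lower. Dmc1, Sycp1 and Rec8 differed by 0.03 to 0.24 and did not pass. Of 20 tested genes of spermatocytes and spermatids (29 listed), 5 were called lower (Spata16, Crisp2, Akap3, Clgn and Ldhc) and 0 higher, against 16.9% of named genes called lower. At an unadjusted p under 0.05 in limma 1 was higher, and 1 was called lower with the slide as a random block. Crisp2 and Akap3 were well above background on 1 GS array and were tested through the spermatogonia arrays alone. Of the 11 members measured on all 4 arrays, 3 were called lower. Protamine Prm1, of late spermatids, was well above background on the GS arrays alone, at -8.95 and -9.23 in GS and -8.12 and -7.41 in spermatogonia, values under the detection limit of the spermatogonia arrays, and had no measurable difference.

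Most tested cell division genes rose, and more so on the GS array with the lower fibroblast signal. Of 25 tested members (30 listed), 18 were called higher and 0 lower (22 and 0 at an unadjusted p under 0.05 in limma), against 15.9% of named genes called higher. The median was 1.69, with 1.19 on GS array 1 and 2.19 on GS array 2. Of the 23 members measured on all 4 arrays, 16 were called higher. Top2a, the topoisomerase of dividing cells, was -1.42 and -0.61 on GS arrays 1 and 2 and -5.19 and -4.80 on the spermatogonia arrays (3.97 ± 0.62, limma adjusted p = 0.00025), or 15.7-fold higher. Cdk1, the kinase that starts mitosis, was -2.61 and -1.51 on GS arrays 1 and 2 and -5.23 and -4.76 on the spermatogonia arrays (2.94 ± 0.49, limma adjusted p = 0.00045). Its partners Ccnb1 and Ccnb2 were -2.17 and -1.35 in GS and -4.43 and -4.29 in spermatogonia, and -3.55 and -1.85 in GS and -5.11 and -5.13 in spermatogonia. All 4 genes were higher on both GS arrays than on both spermatogonia arrays, and each was higher on GS array 2 than on GS array 1.

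The rise spanned several steps of the cell cycle. Replication genes called higher were Mcm2 (2.07 ± 0.46), Mcm5 (1.45 ± 0.31), Rrm2 (1.91 ± 0.21) and Tyms (1.75 ± 0.32), and the origin licensing gene Cdt1 was even, at 1.02 and 1.67 in GS and 1.29 and 1.58 in spermatogonia. Mitotic genes called higher included Aurkb (3.04 ± 0.49), Kif11 (3.04 ± 0.72), Cdc20 (1.68 ± 0.28) and Plk1 (1.34 ± 0.30). The 7 members that did not pass were Cdt1, Aurka, Bub1, Mcm3, Mcm4, Mcm6 and Mcm7. The count called higher was 23 without GS replicate 1, and with the slide as a random block 6. In the authors' value table the count was 6, with a median of 1.82.

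Promoters of 3 of these genes are shown because cell cycle promoters are known for 2 short elements, the CCAAT box bound by NF-Y and the cell cycle homology region (CHR, TTTGAA). Of the 15 called genes with a promoter in the RefSeq table (GRCm38.p6), 12 held CCAAT and 7 held TTTGAA on either strand in the 250 bases before the start. Over the table, 33.8% of promoters (37.5% of genes) held CCAAT and 16.0% (18.3% of genes) held TTTGAA. Of all 25 listed genes with a promoter, called or not, 19 held CCAAT and 8 held TTTGAA. The share with CCAAT was thus close in the called genes and in the list (80.0% against 76.0%). The list includes the called genes and genes with no probe of their name. Whether CCAAT sets called genes apart from those not called was thus not tested. The motifs are in capitals, and none overlap in these 3 windows. A match describes the letters, not a bound site:
Ccnb2 (chr9:70421555-70421804, minus strand): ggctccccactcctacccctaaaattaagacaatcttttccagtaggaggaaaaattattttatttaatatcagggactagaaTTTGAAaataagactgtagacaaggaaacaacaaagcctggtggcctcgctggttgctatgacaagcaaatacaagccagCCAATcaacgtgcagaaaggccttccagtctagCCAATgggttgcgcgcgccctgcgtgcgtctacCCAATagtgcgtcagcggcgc
Cdk1 (chr10:69352913-69353162, minus strand): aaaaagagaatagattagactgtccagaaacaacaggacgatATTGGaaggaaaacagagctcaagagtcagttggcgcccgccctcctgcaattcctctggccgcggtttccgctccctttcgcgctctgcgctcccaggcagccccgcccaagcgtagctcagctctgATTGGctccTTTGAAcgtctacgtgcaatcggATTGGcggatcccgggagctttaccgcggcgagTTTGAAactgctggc
Top2a (chr11:99024190-99024439, minus strand): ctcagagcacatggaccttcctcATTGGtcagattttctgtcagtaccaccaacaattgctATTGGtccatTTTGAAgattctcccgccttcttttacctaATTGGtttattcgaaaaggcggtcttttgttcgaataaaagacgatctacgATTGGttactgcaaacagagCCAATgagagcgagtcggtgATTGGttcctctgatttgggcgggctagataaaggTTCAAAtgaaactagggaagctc

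Of 5 tested CDK inhibitors (7 listed), 2 were called higher and 2 lower. Of the 4 measured on all 4 arrays, 1 was called higher and 2 lower. Cdkn1a (p21), a brake induced by stress and growth arrest, was 3.20 and 1.12 on GS arrays 1 and 2 and -1.13 and -1.23 on the spermatogonia arrays (3.34 ± 0.44, limma adjusted p = 5.7e-05). Cdkn2b (p15) was -1.49 and -2.41 on GS arrays 1 and 2 and -6.18 and -5.66 on the spermatogonia arrays (3.97 ± 0.66, limma adjusted p = 0.00042). Both were higher on both GS arrays and highest on GS array 1, opposite to the order of the division genes. Cdkn2c (p18) fell, at -5.13 and -6.41 in GS and -3.54 and -3.79 in spermatogonia (-2.11 ± 0.47, limma adjusted p = 0.0037), and Cdkn2d (p19) fell by 0.68 ± 0.23 (limma adjusted p = 0.042). With the slide as a random block 1 was called higher and 0 lower.

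**Figure D3:**
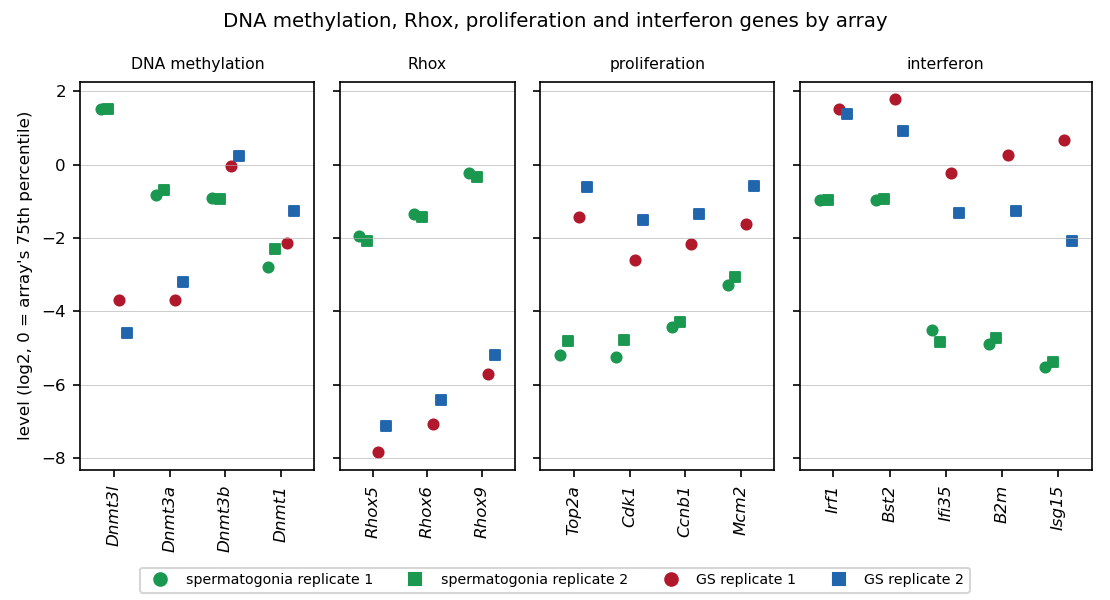
Log2 levels (y, 0 at the array's 75th percentile) of DNA methylation, Rhox, proliferation and interferon-linked genes (x) on each of the 4 arrays. The GS values of Dnmt3l, Dnmt3a and the 3 Rhox genes lie below the spermatogonia values, those of Top2a, Cdk1, Ccnb1, Mcm2 and the interferon-linked genes above them, and Dnmt1 differs least.

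Most tested antigen presentation and interferon-response genes were higher in GS. Of 19 tested members (30 listed), 13 were called higher and 0 lower (14 and 0 at an unadjusted p under 0.05 in limma), with a median of 2.40 (3.04 on GS array 1 and 1.87 on GS array 2). Of the 13, 2 (Tap1 and Oas1a) were tested through the GS arrays alone (the sign of Tap1 turned with normexp), and of the 15 members measured on all 4 arrays 11 were called higher. Irf1, a transcription factor induced by interferon, was 1.51 and 1.38 on GS arrays 1 and 2 and -0.97 and -0.95 on the spermatogonia arrays (2.40 ± 0.36, limma adjusted p = 0.00016). Bst2 (tetherin), which holds enveloped virus at the cell surface, was 1.78 and 0.92 on GS arrays 1 and 2 and -0.97 and -0.94 on the spermatogonia arrays (2.31 ± 0.38, limma adjusted p = 0.00037). Ifi35 was -0.22 and -1.31 on GS arrays 1 and 2 and -4.50 and -4.82 on the spermatogonia arrays (3.90 ± 0.38, limma adjusted p = 3.3e-06). On both GS arrays these 3 genes were above both spermatogonia arrays, and for Irf1 the GS arrays were within 0.13 of each other.

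Genes that cut, carry and display peptides rose too. Psmb9, an immunoproteasome subunit, was -2.26 and -1.76 in GS and -4.95 and -5.28 in spermatogonia (3.10 ± 0.55, limma adjusted p = 0.00065), and was higher on GS array 2. B2m, the light chain of MHC class I, was 0.27 and -1.26 in GS and -4.89 and -4.71 in spermatogonia (4.31 ± 0.74, limma adjusted p = 0.00057), and the ubiquitin-like Isg15 was 0.67 and -2.08 in GS and -5.50 and -5.38 in spermatogonia (4.73 ± 1.03, limma adjusted p = 0.0031). For B2m and Isg15 GS array 1 was the higher by 1.53 and 2.75. Ifitm1, Ifitm2 and Ifitm3, membrane proteins that block virus entry, were called higher by 1.99 to 2.79. Among the 6 members that did not pass, Irf7 (-1.44 and -5.95 in GS and -4.57 and -4.82 in spermatogonia), Ifit2 and Stat2 were above both spermatogonia arrays on GS array 1 and below both on GS array 2. The count of 13 became 9 without GS replicate 1, and with the slide as a random block 3.

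The interferon-stimulated response element (ISRE, searched on either strand as GAAA, any 2 bases and GAAA) was in 5 of the 12 called genes with a promoter in the table (Isg15, B2m, Oas1a, Bst2 and Ifitm2), against 2.98% of all promoters. Over all genes of the table the share was 3.46%. The element was in 11 of all 24 listed genes with a promoter. These 24 include the called genes and genes with no probe of their name. Whether the element sets called genes apart from those not called was thus not tested. The windows of Isg15, where 3 matches overlap, and B2m are shown with the element in capitals, because their RNA rose most:
Isg15 (chr4:156200819-156201068, minus strand): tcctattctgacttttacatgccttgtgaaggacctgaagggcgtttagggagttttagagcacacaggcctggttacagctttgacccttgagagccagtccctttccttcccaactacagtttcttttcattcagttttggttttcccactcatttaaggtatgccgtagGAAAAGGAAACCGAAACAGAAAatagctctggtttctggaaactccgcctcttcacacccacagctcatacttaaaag
B2m (chr2:122147437-122147686, plus strand): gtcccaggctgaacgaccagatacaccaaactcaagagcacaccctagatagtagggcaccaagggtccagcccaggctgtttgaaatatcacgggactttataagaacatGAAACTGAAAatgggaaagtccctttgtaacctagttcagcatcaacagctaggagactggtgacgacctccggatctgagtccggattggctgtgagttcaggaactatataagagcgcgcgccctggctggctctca

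Fibroblast and matrix genes gave the widest gap between the GS arrays of the 28 gene lists (median 2.74). Of 32 tested members (42 listed), 14 were called higher and 1 lower (Meox1). Of the 14, 3 (Mmp3, Ccn1 and Pdgfrb) were tested through the GS arrays alone (the sign of Pdgfrb turned with normexp), and of the 27 members measured on all 4 arrays 11 were called higher. On GS array 1, 29 members were higher than on GS array 2 by more than 1 log2 unit, none the other way. The median was 4.15 on GS array 1 and 1.38 on GS array 2. Col3a1, a fibrillar collagen, was 1.82 and -2.84 on GS arrays 1 and 2 and -1.94 and -2.29 on the spermatogonia arrays (1.60 ± 1.60, limma adjusted p = 0.52). Decorin (Dcn), a collagen-binding proteoglycan, was 2.72 and -2.81 on GS arrays 1 and 2 and -0.67 and -0.85 on the spermatogonia arrays (adjusted p = 0.83 by limma). For both genes GS array 1 was above, and GS array 2 below, both spermatogonia arrays. Lum, Pdgfra, Twist1, Snai2, Fstl1 and Col6a1 had the same order.

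Another set of matrix genes was higher than in spermatogonia on both GS arrays. Timp1, an inhibitor of matrix proteases, was 1.22 and 0.43 on GS arrays 1 and 2 and -3.81 and -3.97 on the spermatogonia arrays (4.71 ± 0.31, limma adjusted p = 1e-07), the smallest p of the group. Fibronectin (Fn1) was 3.38 and 1.67 on GS arrays 1 and 2, against a mean of -2.15 ± 0.21 (SD, n = 2) in spermatogonia (4.67 ± 0.55, limma adjusted p = 2.3e-05), and tenascin C (Tnc) was 1.21 and -0.60 in GS and -4.42 and -4.43 in spermatogonia (4.73 ± 0.69, limma adjusted p = 0.00015). Tagln, an actin-binding protein, was -0.66 and -0.41 in GS and -3.25 and -2.86 in spermatogonia, the only member called higher that was brighter on GS array 2 than on GS array 1. The protease gene Mmp3 was not well above background in spermatogonia and was at least 236-fold higher in GS, with 2.87 and -0.70 in GS and -8.43 and -9.46 in spermatogonia. The count of 14 became 8 without GS replicate 1, and with the slide as a random block 3.

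**Figure D4:**
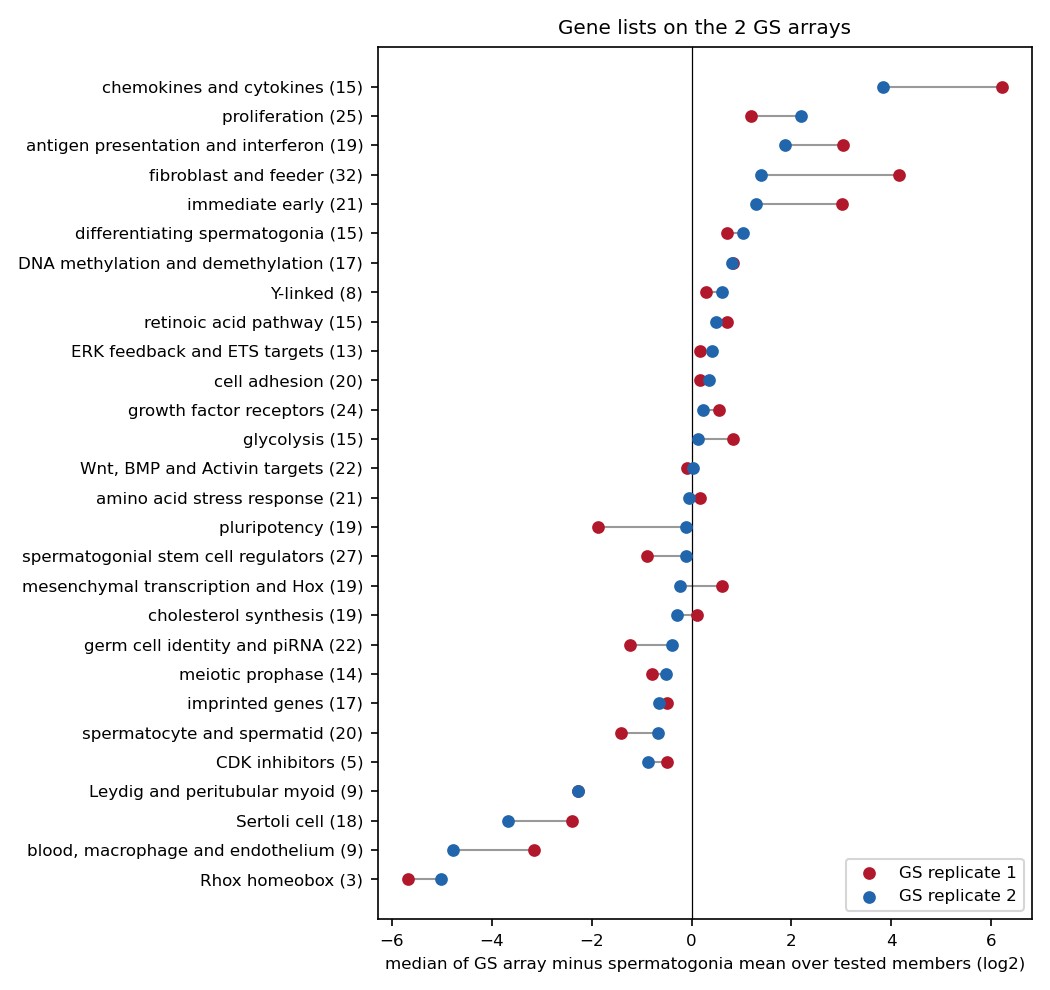
Median log2 level of the tested members of 28 gene lists (y, number tested in brackets) on GS array 1 (red) and GS array 2 (blue), each minus the spermatogonia mean (x). The red point lies furthest right of the blue one for the fibroblast list (4.15 against 1.38), and to its left for the proliferation list (1.19 against 2.19).

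Several chemokines and cytokines, among them Ccl2, Ccl7 and Cxcl1, were higher in GS, from below the detection limit in spermatogonia. Of 26 listed, 15 were tested, 9 were called higher and 0 lower (0 at an unadjusted p under 0.05 in limma), and 6 had too little signal in both groups. Of the 9 called, 8 were tested through the GS arrays alone, so the count is no support for a change of the group. Of the 6 members measured on all 4 arrays, 1 (Csf1) was called. The median over the 15 tested members, 5.03, became 3.60 with undetected members set at their bounds. Ccl2, which draws monocytes, was 2.34 and 0.42 on GS arrays 1 and 2 and -8.41 and -7.55 on the spermatogonia arrays, at least 289-fold higher (limma adjusted p = 8.4e-05). Ccl7 was 1.62 and -0.82 in GS and -8.53 and -9.42 in spermatogonia, at least 147-fold higher, and the neutrophil chemokine Cxcl1 was 1.42 and -0.83 in GS and -8.15 and -9.01 in spermatogonia, at least 136-fold higher. All were higher on GS array 1 than on GS array 2 by over 1 log2 unit. Csf1, the macrophage growth factor, was measured on all 4 arrays, at 0.31 and -1.06 in GS and -5.70 and -5.75 in spermatogonia (5.35 ± 0.97, limma adjusted p = 0.00083). The inflammatory cytokine Il6 was -1.73 and -3.00 in GS and -8.61 and -9.14 in spermatogonia, at least 21.6-fold higher. Without GS replicate 1, 4 members were called higher, and with the slide as a random block 2. Gdnf itself was -2.22 and -3.90 in GS and -3.85 and -3.75 in spermatogonia (adjusted p = 0.61 by limma), highest on GS array 1.

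Since 8 of the 9 called members were tested through the GS arrays alone, the shares of promoters given next are no support for a change of the group. They describe letters, not bound sites. An NF-kB element was searched on either strand as GGGA, any 2 bases and TTCC. It was in 4 of the 6 called genes with a promoter in the table (Cxcl1, Cxcl2, Il6 and Csf1). It was in 6 of all 20 listed genes with one, tested or not, against 1.21% of all promoters (1.36% of genes). Both windows below carry it in capitals near the start, on the 2 strands at once in Cxcl1:
Cxcl1 (chr5:90890995-90891244, plus strand): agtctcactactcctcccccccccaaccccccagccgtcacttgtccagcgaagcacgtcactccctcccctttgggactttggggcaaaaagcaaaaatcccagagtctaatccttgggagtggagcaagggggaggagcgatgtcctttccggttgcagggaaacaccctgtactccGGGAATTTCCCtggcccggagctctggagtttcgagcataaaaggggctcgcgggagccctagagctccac
Il6 (chr5:30012864-30013113, plus strand): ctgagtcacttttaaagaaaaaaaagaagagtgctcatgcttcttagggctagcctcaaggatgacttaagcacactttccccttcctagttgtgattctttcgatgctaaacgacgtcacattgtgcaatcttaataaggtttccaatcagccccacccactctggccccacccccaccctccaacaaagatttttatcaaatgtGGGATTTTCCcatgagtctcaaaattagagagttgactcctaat

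Immediate early genes, which are induced within minutes by growth factors or by handling, were higher mainly on GS array 1. Of 21 tested members (24 listed), 10 were called higher and 1 lower (Maff), and the median was 3.01 on GS array 1 and 1.29 on GS array 2. Btg2 was 1.31 and -0.76 in GS and -3.46 and -3.39 in spermatogonia (3.70 ± 0.51, limma adjusted p = 8.5e-05), and Ier3 was 0.59 and 0.59 in GS and -1.06 and -0.89 in spermatogonia (1.56 ± 0.32, limma adjusted p = 0.0021). Ier3 was at the same level on both GS arrays, while 17 members were higher on GS array 1 by more than 1 log2 unit. Fos was -0.85 and -1.90 in GS and -3.42 and -2.95 in spermatogonia and did not pass (adjusted p = 0.061 by limma), and Egr1 was 2.63 and 1.45 in GS and 1.52 and 1.42 in spermatogonia (adjusted p = 0.62). Without GS replicate 1, 3 members were called higher and 2 lower, and with the slide as a random block 2 and 0. Of the 10 called higher, 3 were tested through the GS arrays alone, and of the 17 members measured on all 4 arrays 7 were called higher.

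Several markers of testicular somatic cells were higher on the spermatogonia arrays. Of 18 tested Sertoli cell genes (24 listed), 10 were called lower in GS and 0 higher (11 and 0 at an unadjusted p under 0.05 in limma), with a median of -2.98. Of the 10, 3 (Cst9, Ptgds and Etd) were well above background on no GS array and were tested through the spermatogonia arrays alone, and of the 10 members measured on all 4 arrays 7 were called lower. Without GS replicate 1 the count was also 10, and with the slide as a random block 7. Cst9 (testatin), a cystatin of fetal Sertoli cells, was -12.03 and -12.71 on GS arrays 1 and 2 and -2.53 and -2.77 on the spermatogonia arrays, at least 196-fold lower in GS (limma adjusted p = 1.1e-05). Ptgds was -9.69 and -10.43 in GS and -3.50 and -3.54 in spermatogonia, at least 93.3-fold lower, and Nr5a1 (SF1) was -6.68 and -7.31 in GS and -3.51 and -3.47 in spermatogonia (-3.50 ± 0.41, limma adjusted p = 2.3e-05). Rhox5 is also on this list, since Sertoli cells express it. Sox9 and Wt1, defining Sertoli factors, were -4.25 and -4.55 in GS and -3.19 and -3.46 in spermatogonia, and -5.29 and -3.44 in GS and -5.00 and -5.00 in spermatogonia, and neither passed. Of 9 tested Leydig cell and peritubular muscle genes (13 listed), 2 were called lower and 0 higher (4 and 0 at an unadjusted p under 0.05 in limma). They were Hsd17b3, an enzyme of testosterone synthesis, at -9.06 and -9.06 in GS and -4.00 and -3.86 in spermatogonia (-5.13 ± 0.96, limma adjusted p = 0.0011), and the calponin gene Cnn1, at -6.05 and -6.10 in GS and -2.39 and -2.54 in spermatogonia (-3.61 ± 0.59, limma adjusted p = 0.00035).

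Blood and vessel genes moved the same way. Hba-a1 (alpha globin) was -7.91 and -8.92 on GS arrays 1 and 2 and 0.39 and 0.19 on the spermatogonia arrays (-8.71 ± 1.91, limma adjusted p = 0.0033), and the erythroid enzyme Alas2 was -9.19 and -9.82 in GS and -3.31 and -3.53 in spermatogonia (-6.08 ± 1.46, limma adjusted p = 0.0059). The endothelial receptors Tie1 and Tek were -7.79 and -7.51 in GS and -1.95 and -2.04 in spermatogonia, and -6.87 and -7.74 in GS and -2.94 and -2.99 in spermatogonia, both called lower in GS. Of 9 tested blood, macrophage and endothelial genes (22 listed), 6 were called lower and 0 higher (6 and 0 at an unadjusted p under 0.05 in limma). Cdh5, Ptprc and C1qa, defining markers of vessels and white cells, were well above background on no more than 1 of the 4 arrays. With the slide as a random block 2 were called lower. All 4 arrays thus carried signal of genes that mark cells other than germ cells, and its part in the other differences was not tested.

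**Figure D5:**
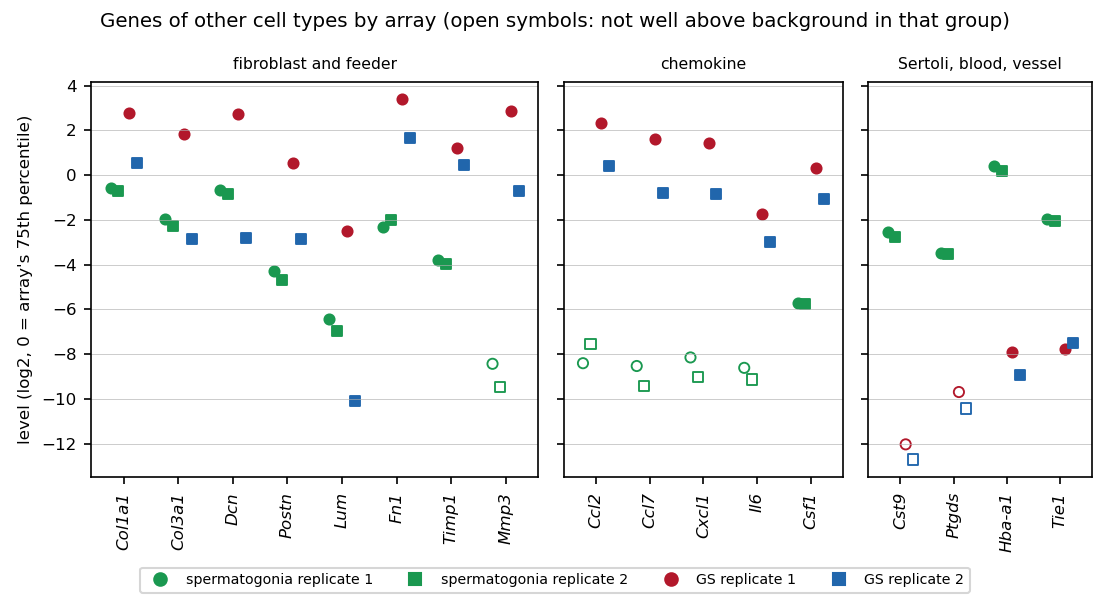
Log2 levels (y, 0 at the array's 75th percentile) of fibroblast and feeder genes, chemokines, and Sertoli, blood and vessel genes (x) on each of the 4 arrays, with open symbols where a group was not well above background. Col3a1, Dcn and Lum lie above the spermatogonia values on GS array 1 and below them on GS array 2, Timp1 and Fn1 lie above on both, and Cst9, Ptgds, Hba-a1 and Tie1 lie below on both.

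Energy and sterol genes were called in both directions. Of 15 tested glycolysis genes (22 listed), 6 were called higher and 1 lower (Pfkp), and with the slide as a random block 2 and 0 (1 and 0 in the authors' value table). Tpi1 was -0.57 and -1.23 in GS and -3.01 and -2.64 in spermatogonia (1.93 ± 0.28, limma adjusted p = 0.00015). Ldha, which makes lactate, was 2.41 and 1.60 in GS and 0.53 and 0.41 in spermatogonia (1.53 ± 0.29, limma adjusted p = 0.0011), and its exporter Slc16a1 was -1.59 and -2.76 in GS and -4.47 and -4.79 in spermatogonia (2.46 ± 0.37, limma adjusted p = 0.00019). The control gene Gapdh was among them, at 0.27 and 0.53 in GS and -0.71 and -0.40 in spermatogonia (0.95 ± 0.20, limma adjusted p = 0.0026), while Pkm, the last enzyme of the pathway, was even at 2.25 and 2.53 in GS and 2.33 and 2.47 in spermatogonia. Of 19 tested cholesterol synthesis genes (24 listed), 6 were called lower and 4 higher. Of the 16 measured on all 4 arrays, 6 were called lower and 1 higher. Fdft1, Dhcr7 and Hmgcs1 fell by 1.03 to 1.56, with Dhcr7 at -0.39 and -0.38 in GS and 1.29 and 1.06 in spermatogonia (limma adjusted p = 9.9e-05), while Cyp51 rose (2.82 ± 0.75, adjusted p = 0.011). Without GS replicate 1, 6 were called lower and 0 higher, and with the slide as a random block 1 and 0.

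Imprinted genes, which are expressed from 1 parental copy, changed in both directions. Of 17 tested members (29 listed), 5 were called lower (Dlk1, Slc38a4, Mest, Grb10 and Zrsr1) and 3 higher (Impact, Snrpn and Ndn). Of the 10 measured on all 4 arrays, 5 were called lower and 1 higher. Dlk1, a membrane protein of fetal tissues, was -0.69 and -3.17 on GS arrays 1 and 2 and 1.76 and 1.53 on the spermatogonia arrays (-3.58 ± 0.59, limma adjusted p = 0.00038). Mest was -3.82 and -3.68 on GS arrays 1 and 2 and -1.24 and -1.25 on the spermatogonia arrays (-2.51 ± 0.38, limma adjusted p = 0.00019), and Slc38a4, an amino acid transporter, was -3.79 and -2.47 in GS and -0.07 and 0.02 in spermatogonia (-3.10 ± 0.45, limma adjusted p = 0.00013). The 2 measured probes of Mest gave -2.51 and -0.52. GS arrays were even for Mest and Zrsr1 and apart by more than 2 log2 units for Dlk1 and Grb10. Impact was -0.11 and -2.32 in GS and -4.56 and -4.26 in spermatogonia (3.19 ± 0.51, limma adjusted p = 0.0003), and Snrpn and Ndn changed sign with normexp. The imprinted counts became 6 lower and 1 higher without GS replicate 1, with the slide as a random block 3 and 0, and with normexp 13 and 1, with a median of -2.16.

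Outside the lists, Spp1 and S100a6 were among the largest rises with even GS arrays. Spp1 (osteopontin, a secreted phosphoprotein) was 3.05 and 2.99 on GS arrays 1 and 2 and -3.27 and -3.42 on the spermatogonia arrays (6.36 ± 0.44, limma adjusted p = 1.7e-07), or 82.3-fold higher. S100a6, a calcium-binding protein, was 4.57 and 3.84 on GS arrays 1 and 2 and -0.88 and -1.05 on the spermatogonia arrays (5.16 ± 0.29, limma adjusted p = 4.5e-08). Ly6g6e, a GPI-anchored surface protein, was -0.95 and -0.32 in GS and -8.48 and -6.71 in spermatogonia, and Ptgs2 (COX-2) was at least 30.5-fold higher. For Spp1 and S100a6 each GS array exceeded each spermatogonia array by more than 4 log2 units. Among rises that were larger on GS array 1, Serpina3n was 2.28 and -2.65 in GS and -8.68 and -9.44 in spermatogonia and at least 97.6-fold higher, and Ccl8 was 2.23 and -3.23 in GS and -7.21 and -8.12 in spermatogonia and at least 78.6-fold higher.

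The largest falls outside the lists were in genes low in GS and well measured in spermatogonia. Cldn18, a tight junction claudin, was -9.28 and -9.58 on GS arrays 1 and 2 and -0.95 and -1.33 on the spermatogonia arrays (-8.29 ± 1.45, limma adjusted p = 0.00062). Scg3, a secretory granule protein, was -9.30 and -9.51 on GS arrays 1 and 2 and -2.47 and -2.61 on the spermatogonia arrays (-6.87 ± 0.55, limma adjusted p = 6.7e-07). The keratin gene Krt84 was -12.12 and -12.98 in GS and -2.80 and -2.66 in spermatogonia, at least 185-fold lower. Clca1 was -8.44 and -7.68 in GS and -1.16 and -1.46 in spermatogonia (-6.75 ± 0.77, limma adjusted p = 1.7e-05). On the arrays of male germ cells at embryonic day 17.5 in the same series, the mean levels of Cldn18, Scg3 and Krt84 were -1.49, -2.57 and -3.31 (n = 2 arrays), nearer to the spermatogonia values than to the GS values. For each of the 3 genes this was the highest mean of the other groups of the series. The whole-testis means, from the slide of the GS arrays, were -10.03, -5.57 and -12.42 (n = 2 arrays), and those of Cldn18 and Krt84 were near the GS values.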

How the data were processed

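Total RNA was hybridised in 1 colour (Cy3) to Agilent mouse arrays. The intensity values are the processed signals that the authors deposited as scanner output, made by Agilent Feature Extraction 10.5.1.1 per the submitters' processing notes. The deposited value table is on a log2 scale and equals the processed signal centred on each array's median within 0.0025. Control spots (1417) and 514 flagged probes were left out, and probes of a gene were represented by the brightest. The log2 signal of each array was set to its 75th percentile over probes well above background on all 28 arrays, since 16 arrays had under 50% of probes above background. Of 43803 probes, 16759 had a gene name, and 27044 had none and are counted but not named. The limma package, version 3.58.1 (lmFit and eBayes, R 4.3.3), was fitted to all 28 arrays with 1 mean a group and 14 residual degrees of freedom. The fit was tested on simulated arrays with independent noise and no slide effect, so that test does not bear on slide differences in these data. The number of arrays (2 a group) limits the precision. The members, gene lists and tests were chosen with earlier results of these data known. In each list, the called members with the largest change in either direction and those whose GS arrays lay on opposite sides of the spermatogonia mean were named. Outside the lists, the rule gave the largest rises with even GS arrays, with GS array 1 higher and with GS array 2 higher, and the largest falls, from which the text takes examples. Mean spot signals were not used here, so the normexp alternative started from the median signals. Other alternatives changed the scaling, the filter, the probe rule, the arrays in the fit, and the block.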

Additional observations from a re-analysis of the deposited data

How the results depend on the processing

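The counts of features higher and lower in GS (3128 and 3513) stayed within 1.5 times under both other percentile scalings, quantile normalization, the median over probes, the filter on all 4 arrays and the common floor. They moved to 1469 and 15757 with normexp and to 1688 and 1803 in the deposited value table, and the cause was not tested for either. Without a filter 9700 were lower, with 38726 features tested. With only the 4 arrays, which leave 2 residual degrees of freedom, 1758 were higher. With the slide as a random block they were 425 and 820. Leaving out 1 array at a time, counted over the same 26022 features with the lone array assumed to vary like the other groups, gave 1476 to 3060 higher and 2024 to 2973 lower. The lowest counts came without spermatogonia replicate 1. With a replicate block the counts were 3396 and 3642 over 28 arrays and 2199 and 2681 over the 4 arrays. The numbers pair no samples by the labels, and the correlation over genes of replicate 1 minus replicate 2 between the groups was 0.07. Of 145 genes named here and called, 144 were called with the replicate block over 28 arrays, 141 with the percentile over the 4 arrays, 110 without GS replicate 1, 94 in the deposited table and 58 with the slide block. With normexp, Lin28a (-0.66), Mbd4 (-0.64), Ndn (-0.61), Pdgfrb (-1.07), Snrpn (-1.01), Tap1 (-0.12), Tdg (-0.70) and Zbtb16 (-1.97) turned to lower, and Tdg was -0.090 with the median over probes. No level of spermatogonia could be read under -6.41 on the first array or -7.19 on the second, which limits every gene written as "at least".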

Other observations

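Several pathways that signal between germ cells and their surroundings were measured and are not described above. Of 24 tested growth factor receptors, 6 were called higher in GS and 0 lower (7 and 1 at an unadjusted p under 0.05 in limma), among them Tgfbr2, a TGF-beta receptor, at 0.98 and -2.75 in GS and -4.73 and -5.13 in spermatogonia. Its log2 difference was 4.05 ± 1.05 by its brightest probe (limma adjusted p = 0.0097), with GS array 1 the higher. The other measured probe of Tgfbr2 gave 0.18. Of the 6 receptors called higher, 2 were measured on all 4 arrays, and the others were tested through the GS arrays alone. Of the 24 tested, 8 were higher on GS array 1 than on GS array 2 by more than 1 log2 unit, against 1 the other way. Of 22 tested Wnt, BMP and Activin targets, 2 were called higher and 3 lower. The BMP targets Id1 and Id3, inhibitors of differentiation factors, were higher on both GS arrays. Id3 was at 2.33 and 0.68 in GS and -3.21 on both spermatogonia arrays (4.71 ± 0.47, limma adjusted p = 5e-06). Lefty2, a secreted antagonist of the TGF-beta family, was well above background in spermatogonia alone, at -4.41 and -4.39, and was at least 56.4-fold lower in GS. Lef1, a nuclear effector of Wnt signals, was -6.37 and -7.19 in GS and -3.36 and -3.07 in spermatogonia (-3.57 ± 0.36, limma adjusted p = 5.8e-06).

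Of 20 tested adhesion genes, 6 were called lower and 5 higher, and without GS replicate 1 4 and 1. Of the 13 adhesion genes measured on all 4 arrays, 6 were called lower and 3 higher. Cldn7, an epithelial claudin, was -7.87 and -8.96 in GS and -3.85 and -3.27 in spermatogonia (-4.85 ± 0.39, limma adjusted p = 7.2e-07). Icam1, an adhesion protein for white cells, was -0.33 and -2.64 in GS and -4.81 and -4.58 in spermatogonia (3.21 ± 0.61, limma adjusted p = 0.0012). In the retinoic acid pathway, 2 of 15 tested genes were called higher and 1 lower (1 and 1 of the 10 measured on all 4 arrays). The one lower, Rarb, a receptor and retinoic acid target, was -8.41 and -9.63 in GS and -4.19 on both spermatogonia arrays (-4.83 ± 0.82, limma adjusted p = 0.00051). Rxrg had the widest gap between GS arrays in that list, at -8.48 and -1.67, with spermatogonia at -3.56 and -3.66. In the amino acid stress list 4 of 21 tested genes were called higher (3 of them measured on all 4 arrays), among them Atf4 (1.54 ± 0.33, limma adjusted p = 0.0031), and 5 lower. Those lower included Asns and Slc7a5, which fell by 1.08 ± 0.29 (limma adjusted p = 0.012) but gave -0.31 by its second probe. Without GS replicate 1, 0 were called higher and 1 lower. Of 8 tested Y-linked genes, 0 were called in either direction (0 at an unadjusted p under 0.05 in limma). Of 19 tested Hox and mesenchymal factor genes, Hoxb6 was called higher and Tbx2 lower (0 and 1 of the 11 measured on all 4 arrays). Of 13 tested ERK feedback genes, Spred3 and Phlda1 were called higher. With the slide as a random block, 0 genes were called in either direction among the growth factor receptors, the retinoic acid pathway, amino acid stress, Hox and mesenchymal factors and ERK feedback genes, 3 adhesion genes were called lower and 0 higher, and 2 of the Wnt, BMP and Activin targets were called lower and 1 higher.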
